A study of Mus musculus with 13 samples.

Results

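Liver sinusoidal endothelial cells outside the pericentral zone were taken from 13 droplet-based single-cell RNA-seq libraries of mouse liver. Members were chosen by measured values of single cells, namely their counts of unique molecular identifiers (UMIs, 1 per captured transcript). A member was a barcode with at least 1500 UMIs and at least 3 UMIs of Stab2, Clec4g, Gpr182 and Oit3 together. It also had 0 UMIs of Wnt2, Wnt9b and Kit together, of the leukocyte gene Ptprc and of the epithelial gene Epcam. Of 95563 barcodes with at least 1500 UMIs, 4762 were members, 4547 of them in the 12 libraries of the time course. Cells that passed the same gate but had at least 1 UMI of Wnt2, Wnt9b or Kit numbered 21703, and they are called pericentral-gate cells here. The genes of the gate are no result, and neither is any difference in them.

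Sinusoidal endothelial cells line the hepatic sinusoids with a fenestrated sheet that has hardly any basement membrane, and they clear waste molecules from portal blood through scavenger and mannose receptors. Along the sinusoid they change from the portal to the central end. Cells near the central vein supply the Wnt ligands and R-spondin 3 that zone the hepatocytes around it. Those near the portal tract have more of arterial-side genes such as Efnb2 and Dll4. In chronic liver injury these cells are known to lose fenestrae and to gain basement membrane, a change called capillarization.

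All libraries came from male C57BL/6J mice of 6 to 12 weeks. Cholangitis was induced by DDC (3,5-diethoxycarbonyl-1,4-dihydrocollidine) at 0.1% of the chow, and libraries of days 3 and 5 (D3, D5) stand for onset, those of days 9, 19 and 25 (D9, D19, D25) for progression and those of control chow (D0) for steady state. Each day has 1 library of isolation protocol A and 1 of protocol B, which differ in cell preparation, sorted populations and index kit, and a library is named by day and protocol (D0 A). Lyve-1+ cells and a Cd31+ Lyve-1- fraction were sorted in protocol A, whereas no endothelial fraction was sorted in protocol B, where alive cells of the stellate cell preparation were one of the sorted populations. Neither Lyve1 nor the share of endothelial cells is compared between protocols. A further library (STOP, protocol B) followed 18 or 19 days of DDC and 7 days of recovery. The library given as D18 in 1 label and as D19 in others is D19 B here. The labels do not tie mice to libraries, so p-values measure the spread between libraries, which need not be different animals.

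Members per library of the time course ranged from 19 (D3 B) to 1000 (D9 A), with 375 to 1000 in protocol A and 19 to 111 in protocol B. D3 B was under the minimum of 20 and entered no test, which left 11 libraries: 2 of steady state, 3 of onset and 6 of progression. The UMIs summed over members ranged from 137170 (D9 B) to 5296900 per library in these 11, so values of protocol B carry more counting error. Mitochondrial transcripts took 1.68% (D0 B) to 11.3% (D9 B) of the UMIs of members. Members of different libraries shared 1 barcode sequence among 4761 distinct ones.

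The members carried the markers of sinusoidal endothelium that the gate did not use. Across the 13 libraries, a UMI of Mrc1, the mannose receptor, was found in 84.2% to 96.4% of members, of Fcgr2b, an Fc receptor that clears immune complexes, in 83.6% to 100% and of Stab1, a scavenger receptor, in 69.2% to 92.6%. The general endothelial genes Kdr, encoding VEGF receptor 2, and Cdh5, encoding VE-cadherin, were found in 88.3% to 98.6% and 75.3% to 95.1%, and 22 of 4762 members (0.462%) had no UMI of Pecam1, Cdh5, Kdr, Egfl7 or Eng. Lyve1, whose protein was sorted on in protocol A, was found in 32.4% to 68.9%. At least 3 UMIs of Vwf, of large vessel endothelium, were seen in 271 members (5.69%), of Mmrn1 or Prox1, of lymphatics, in 81 (1.70%), of Dcn, of fibroblasts, in 106 (2.23%), and of the Kupffer cell genes Clec4f, Cd5l and C1qa together in 363 (7.62%), while 308 (6.47%) had at least 5 UMIs of the hepatocyte gene Alb. Doublets were not removed. Cells just inside the gate, with a sum of 3, had a median Mrc1 level over libraries of 801 CPM (UMI counts scaled to 1 common total) and those just outside, with a sum of 2, of 527 CPM. Their median levels of Kdr were 1044 and 711 CPM, respectively.

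Members made up 13.9% to 29.0% of all cells in the sinusoidal gate, 20.1% and 24.2% at D0. The share depends on depth, since a cell with few UMIs can miss Wnt2, Wnt9b and Kit. Members had a median of 2139 to 7025 UMIs, the pericentral-gate cells 2277 to 9023. When each cell was first thinned to 1500 UMIs at random, the share of members was 31.1% to 66.2%. The label was set against other genes of zonation.

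The members differed from the pericentral-gate cells of the same libraries in genes of both ends of the sinusoid. Of 9622 genes tested with the library as a block, 857 were higher in members (8.91% of all) and 791 lower (8.22%), 3 gate genes among them. The cells were divided by 3 pericentral transcripts, so genes that go with those had to differ, and the counts describe the division. All 10 genes of a periportal sinusoidal list were higher in members, with a median log2 fold change of 1.13, and all 8 genes of a pericentral list outside the gate were lower, with a median of -1.27, where the median of all genes tested was 0.01. Adgrg6, an adhesion G protein-coupled receptor, lay at 16 to 222 CPM (median 35.3) in members and 0 to 13.4 CPM (median 5.32) in pericentral-gate cells. Its log2 fold change was 3.63 (SE 0.16), SE being a standard error derived from the F statistic of the test. Rspo3, encoding R-spondin 3, lay at 1.74 to 71.8 CPM (median 31.3) and 114 to 499.7 CPM (median 253), a log2 fold change of -3.05 (SE 0.22). Both genes had the same direction in 11 of 11 libraries. Among members with 0 UMIs of Vwf, Mmrn1, Prox1 and Dcn, which mark large vessels, lymphatics and fibroblasts, the log2 fold change was 1.82 for Adgrg6 and -5.01 for Rspo3. This filter was applied to members only, here and below, and not to the pericentral-gate cells.

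Among the periportal genes, Efnb2, encoding ephrin B2, was higher in members by 1.21 (SE 0.08) on the log2 scale and Dll4, a Notch ligand, by 0.99 (SE 0.08). The transcription factor gene Mecom differed by 1.99 (SE 0.11) and the scavenger receptor gene Msr1 by 1.45 (SE 0.08), the smallest difference of the list being that of Il1a with 0.34 (SE 0.11). Hmcn1, encoding the matrix protein hemicentin 1, and Ly6a, encoding the surface protein Sca-1, were higher by 1.51 (SE 0.10) and 1.42 (SE 0.11). Vegfc, a growth factor of lymphatic and sinusoidal endothelium, was higher by 3.05 (SE 0.17), at 11.7 to 84.3 CPM (median 45.4) in members and 0 to 23.1 CPM (median 5.59) in pericentral-gate cells, and by 2.03 among members with 0 UMIs of Vwf, Mmrn1, Prox1 and Dcn. On the pericentral side, the transcription factor gene Lhx6 differed by -3.34 (SE 0.19), Plppr5 by -3.07 (SE 0.17), the cadherin gene Cdh13 by -1.72 (SE 0.09), Rab3b, a small GTPase of secretion, by -1.71 (SE 0.10) and Thbd, encoding thrombomodulin, by -1.18 (SE 0.10). Fabp4, a fatty acid binding protein, differed by -0.32 (SE 0.11), the smallest difference of the pericentral list. The calls of these last members of each list were lost with single libraries left out and in DESeq2. Il1a lost its call without D0 A, D3 A, D5 A, D5 B, D9 A, D9 B, D19 A, D25 A or D25 B (adjusted p up to 0.151, without D3 A) and in 2 of 5 alternatives (0.27 to 0.45). Fabp4 lost its call without D0 A, D0 B, D3 A, D5 A or D9 A (adjusted p up to 0.105, without D9 A) and in 2 of 5 alternatives (-0.49 to -0.21).

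**Figure D1:**
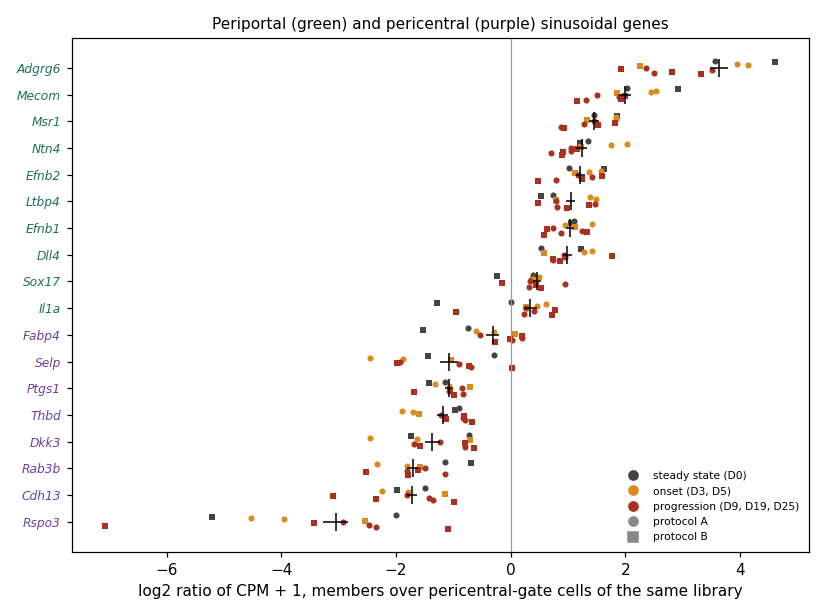
Log2 ratio of CPM + 1 (horizontal axis) of 10 periportal and 8 pericentral sinusoidal genes between members and pericentral-gate cells, 1 point per library (circles, protocol A; squares, protocol B; colour, stage), with the fitted log2 fold change and its SE as a black cross. The fitted values of all 10 periportal genes lie to the right of 0, from 0.34 (Il1a) to 3.63 (Adgrg6), and those of all 8 pericentral genes to the left, from -0.32 (Fabp4) to -3.05 (Rspo3).

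Calls between the 2 kinds of cell also fell in other lists, which were not tested as lists. Of all genes tested, 8.91% were called higher in members and 8.22% lower. Of 21 type I interferon-stimulated genes tested, 10 were higher in members and none lower, with a median log2 fold change of 0.23, among them Isg15 at 0.70 (SE 0.10). Of 20 immediate early and heat shock genes, 12 were higher and none lower. Of 10 leukocyte adhesion genes, 6 were lower and none higher, led by Selp, encoding P-selectin, at -1.07 (SE 0.17), and of 11 sinusoidal markers outside the gate, 7 were lower, such as Stab1 at -0.35 (SE 0.05). Markers of other cells moved with these differences: 9 of 11 hepatocyte, 10 of 11 Kupffer cell and macrophage and 6 of 8 stellate cell and fibroblast markers were higher in members, and Alb differed by 1.01 (SE 0.08). Members also had a lower median of UMIs than pericentral-gate cells in each library, for example 5544 against 8644 in D19 A. The part of other cells and of depth in the differences was not tested.

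The stages of the diet were compared in 10888 genes over the UMIs summed per library, with isolation protocol as a term. Depth went with stage. Members had a median of 2139 to 2533 UMIs at steady state, 3268 to 6537 at onset and 2975 to 7025 at progression. A shallow cell misses Wnt2, Wnt9b and Kit more easily, so members of the stages may differ in zone. The part of depth in the stage differences was not tested beyond the gate after thinning. At onset, 2 genes were higher than at steady state (0.0184% of genes tested) and 14 lower (0.129%). At progression, 12 were higher than at steady state (0.110%) and 16 lower (0.147%). Progression against onset gave 18 higher genes (0.165%) and 6 lower ones (0.0551%). An unadjusted p under 0.05 was reached by 775, 1180 and 812 genes in these comparisons. Fold changes are given on the log2 scale throughout, with their standard error (SE) after ±, from edgeR's quasi-likelihood test, and a gene was called at an adjusted p under 0.05 (Benjamini-Hochberg over all genes tested). Levels are CPM scaled by TMM, and they are listed in the order D0 A and D0 B for steady state and D3 A, D5 A and D5 B for onset, with the range and median of the 6 libraries for progression. Lack of overlap between stages is a description, since with 2 steady-state libraries genes can lie apart by chance. The share of all genes tested that did so is not given here. A sum over cells cannot tell fewer expressing members from less RNA in each. With 2 steady-state libraries, single libraries decided many calls, and such losses are given beside the genes the results turn on, with the number of alternative settings in which the call was lost and the range of the log2 value over them in parentheses. Without D0 A or D0 B, in either protocol alone and in cells with at least 3000 UMIs, where D0 B had 19 members and D9 B 18 and both were left out, steady state was 1 library, whose spread is assumed to be that of the other groups. For a list of genes, the range of its median with 1 library left out is given in square brackets after the median.

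Of 19 genes of endocytosis and scavenging tested, none was called between any 2 stages. At progression, 0.11% of all genes tested were called higher than at steady state and 0.147% lower. At such shares, 0 calls in a short list, here and below, is no result about the list. The median log2 fold change of the 19 genes at progression was -0.09 [-0.12 to 0.10]. An unadjusted p under 0.05 (edgeR) was reached by 5 of them upward and 1 downward, against 565 and 615 of all 10888 genes. Stab1 lay at 889 and 599.8 CPM at D0 and, over the 6 progression libraries, from 477 (D19 B) to 884 (D9 A), median 616. Mrc1 lay at 1640.2 and 1717 CPM at D0 and from 1088 (D19 A) to 1913 (D9 A), median 1535. Both ranges overlapped the steady-state values, with log2 differences of -0.20 (SE 0.29) and -0.16 (SE 0.29). None of 11 sinusoidal markers outside the gate and none of 20 endothelial transcription factor genes was called either. Ehd3, which takes part in endocytic recycling, lay at 2957 and 2523 CPM at D0 and from 935 (D25 B) to 2209.6 (D9 A), median 1053 at progression, without overlap. Its difference of -1.16 ± 0.31 (adjusted p = 0.178) did not pass the test, and passed it without D9 A (-1.4, adjusted p = 0.0464) and in DESeq2 (-1.19, adjusted p = 0.0235). Ctsb, encoding the lysosomal protease cathepsin B, lay at 742 and 892 CPM at D0, at 1269, 1245 and 1238 in D3 A, D5 A and D5 B and from 1369 (D9 B) to 1903 (D25 A), median 1770.3 at progression. Its 3 stages did not overlap, while the log2 difference of 1.09 ± 0.27 (adjusted p = 0.142) did not pass either. Ctsb passed in DESeq2 (1.07, adjusted p = 1.31e-09) and with the gate set after thinning (1.28, adjusted p = 0.0376).

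The zonal genes gave no call against steady state. None of the 10 periportal and none of the 8 pericentral genes passed the test at progression against steady state, with medians of 0.11 [-0.16 to 0.71] and 0.70 [0.50 to 0.82], and none did at onset. Against onset 1 of the 8 was called at progression, Dkk3, a secreted glycoprotein, at 2.21, 6.41 and 12.2 CPM at onset and from 18.5 (D9 A) to 41.2 (D25 A), median 25.7 at progression (log2 fold change 2.38 ± 0.45, adjusted p = 0.0455), with 13.7 and 18.7 CPM at D0. Dkk3 lost its call against onset without D3 A, D5 A, D9 B, D19 A, D19 B or D25 A (adjusted p up to 0.972, without D3 A) and in 5 of 11 alternatives (1.1 to 2.84). Efnb2 lay at 229 and 112 CPM at D0 and from 155 (D9 A) to 365 (D19 B), median 211 at progression. Rspo3 lay at 69.6 and 3.75 CPM at D0 and from 1.69 (D19 B) to 51.2 (D25 B), median 38.7. Adgrg6 lay at 149 and 22.5 CPM at D0, at 217, 151 and 34.1 at onset and from 14.8 (D9 B) to 47.4 (D19 A), median 31.7 at progression. D0 B and D5 B lay within the range of progression (log2 fold change -1.35 ± 0.45, adjusted p = 0.282). With D0 A as the only steady-state library, Adgrg6 was called lower in protocol A alone (-1.997, adjusted p = 0.0298), in cells with at least 3000 UMIs (-2.18, adjusted p = 0.025), and with both libraries it was called with the gate set after thinning (-2.47, adjusted p = 0.0122). In protocol B alone the value was 0.34, adjusted p = 0.913, and with 1 library left out it ranged from -1.81 to -0.07, the last without D0 A. Selp, which lets leukocytes roll on endothelium, was at 36.6 and 7.5 CPM at D0 and from 22.2 (D9 B) to 314 (D25 B), median 134 at progression, with all 4 libraries of D19 and D25 above both D0 libraries. Its difference of 2.17 ± 0.86 (adjusted p = 0.37) did not pass the test. It passed among members with 0 UMIs of Vwf, Mmrn1, Prox1 and Dcn (5.29, adjusted p = 0.0493) and with the gate set after thinning to 1500 UMIs (5.00, adjusted p = 0.0262). Selp did not pass among members with no UMI of other cell types (1.53, adjusted p = 0.623). These members, here and below, lacked UMIs of the myeloid, fibroblast and lymphocyte genes listed with the methods. The value of Selp was lowest in cells with at least 3000 UMIs, with 0.85.

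Among ligands and cytokine receptors, Inhbb, Cxcl2, Csf2rb2 and Il17ra rose. Inhbb, which encodes the activin B subunit, rose from 16.9 and 22.5 CPM in D0 A and D0 B to 107, 141 and 85.1 CPM in D3 A, D5 A and D5 B, and lay from 66.6 (D9 B) to 220.3 (D25 B), median 147 in progression. No library of onset or progression overlapped steady state. The log2 fold change was 2.61 ± 0.45 (adjusted p = 0.0374) at onset and 3.05 ± 0.44 (adjusted p = 0.00513) at progression. It was the only called gene of 23 angiocrine ligands tested at progression, where the median of the list was -0.06 [-0.16 to 0.98], the highest value being that without D0 A. Csf2rb2, a receptor subunit for interleukin 3, had 2.75 and 0 CPM at D0, 15.7, 22.8 and 34.1 at onset and 26.3 (D9 A) to 100.1 (D25 B), median 73.3 at progression. Csf2rb2 rose by 4.63 ± 0.66 (adjusted p = 0.00507), a value that depends on the prior count since D0 B had no UMI of it. The related Csf2rb, the common beta chain of cytokine receptors, was called as well, with 2.29 and 7.5 CPM at D0 and 7.4 (D9 B) to 34.1 (D25 A), median 26.9 at progression (log2 fold change 3.04 ± 0.59, adjusted p = 0.0465), but D9 B lay just under D0 B. Csf2rb lies outside the naming rule and was chosen after its values were seen. Its call was lost without D0 A, D3 A, D5 A, D5 B, D19 A, D19 B or D25 A (adjusted p up to 0.462, without D0 A, log2 value 1.8) and in 5 of 10 alternatives (1.52 to 3.56).

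Il17ra, the receptor of interleukin 17A, lay at 13.3 and 3.75 CPM at D0, 25.6, 33.5 and 17 at onset and 41.5 (D19 A) to 97.9 (D25 B), median 61.5 at progression. Il17ra rose by 2.6 ± 0.48 (adjusted p = 0.0347). Its level in D0 B is 1 UMI, with an exact 95% Poisson interval of 0.099 to 21.8 CPM, not adjusted by TMM. All its progression libraries were above those of onset and steady state. Cxcl2, a chemokine that attracts neutrophils, stayed at 26.9, 23.9 and 17 CPM in D3 A, D5 A and D5 B against 22 and 22.5 CPM at D0 and then lay from 51.8 (D9 B) to 226 (D25 A), median 116. It rose by 2.77 ± 0.42 (adjusted p = 0.00737) against steady state and by 2.76 ± 0.32 (adjusted p = 0.00159) against onset, the only called gene of 20 chemokines and cytokines. Barcodes with 10 to 100 UMIs, which hold free RNA, had more Cxcl2 than members in each library, 138 and 1019.6 CPM at D0 and up to 1302 CPM (D9 A). They had less Inhbb than the members of the same library in all 11. Of Csf2rb2 they had more than members in D0 A, D0 B, D3 A, D5 A and D9 A, with 17.2 CPM in D0 B, where members had 0. Of Il17ra they had more in D0 A, D0 B, D3 A and D5 A, with 17 and 31.9 CPM at D0. Levels in these barcodes, here and below, carry counting error and are given without intervals. In D25 A the lowest level above 0 among the genes examined was 25.5 CPM. The part of free RNA in these differences was not tested. In members with no UMI of other cell types, D9 B, D19 A and D25 B had under 20 cells and were left out, and 6341 genes were tested. There, the log2 fold change against steady state was 1.39 (adjusted p = 0.565) for Cxcl2, 3.13 (adjusted p = 0.0293) for Inhbb (at onset 2.56, adjusted p = 0.155), 4.69 (adjusted p = 0.0975) for Csf2rb2 and 2.29 (adjusted p = 0.205) for Il17ra. With 1 library left out, some of these calls were lost. Inhbb lost its call at progression without D0 A (adjusted p = 0.122) and in 1 of 11 alternatives (2.65 to 3.54). Csf2rb2 lost its call at progression without D0 A (adjusted p = 0.0793, log2 value 10.1) and in 2 of 11 alternatives (4.23 to 7.9). Cxcl2 lost its call at progression without D0 A (adjusted p = 0.239) and in 4 of 11 alternatives (1.39 to 3.56). Il17ra lost its call at progression without D0 A, D0 B, D3 A, D5 A, D9 B, D19 B or D25 A (adjusted p up to 0.124, without D0 A, log2 value 4.19) and in 4 of 11 alternatives (2.26 to 4.16). Inhbb lost its call at onset without D0 A, D3 A, D5 A, D19 A or D25 A (adjusted p up to 0.292, without D5 A) and in 4 of 11 alternatives (1.86 to 3.12). Cxcl2 lost its call against onset without D3 A (adjusted p = 0.0703) and in 3 of 11 alternatives (0.93 to 2.89). The lowest value of Cxcl2 against onset was that after thinning, where D3 B had enough members to enter.

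Col4a2, Abca1, Lrg1, Clca3a1 and Steap2, genes of matrix, transport and secreted proteins, rose as well. Col4a2, a chain of type IV collagen of basement membranes, lay at 176 and 206 CPM at D0, 305, 323 and 387 at onset and 416 (D9 A) to 636 (D9 B), median 560.1 at progression. Col4a2 rose by 1.5 ± 0.28 (adjusted p = 0.0347). The 3 stages did not overlap. Its partner chain Col4a1 lay at 50.4 and 124 and 136 (D25 B) to 353 (D25 A), median 255 CPM without overlap, a difference of 1.7 ± 0.42 (adjusted p = 0.13) that did not pass. It was called without D25 B (1.89, adjusted p = 0.0236), in protocol A alone with 1 steady-state library (2.37, adjusted p = 0.04) and in DESeq2 (1.65, adjusted p = 0.0104). Col4a2 was the only called gene of 20 basement membrane and matrix genes at progression against steady state, while 1 gene of this list was called lower at onset. Abca1, which exports cholesterol, lay at 66 and 30.0 CPM at D0, 104, 156 and 70.5 at onset and 118 (D9 B) to 224 (D25 A), median 175 at progression. Abca1 rose by 1.85 ± 0.34 (adjusted p = 0.0347). It was the only called gene of 19 genes of lipid uptake and oxidation, whose median was 0.57 [0.42 to 0.73], with Plin2 of lipid droplets at 0.86 ± 0.27 (adjusted p = 0.254) and the fatty acid receptor Cd36 at 0.80 ± 0.31 (adjusted p = 0.362), neither of which passed.

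Lrg1, a secreted glycoprotein that acts on endothelial TGF-beta signalling, lay at 54.5 and 3.75 CPM at D0, 183, 282 and 189.7 at onset and 148 (D9 A) to 603 (D19 A), median 287 at progression. Lrg1 rose by 3.23 ± 0.60 (adjusted p = 0.0347), a value that ranged from 2.67 to 6.19 with 1 library left out and was highest without D0 A. Clca3a1, a gene of the calcium-activated chloride channel regulator family that is known from lymphatic endothelium, lay at 45.3 and 22.5, 141, 228 and 129 and 103 (D9 A) to 183 (D19 B), median 160.4 CPM. It rose by 2.14 ± 0.39 (adjusted p = 0.0443) at onset and by 2.04 ± 0.37 (adjusted p = 0.0347) at progression, and lay above both D0 libraries in all 9 others. Steap2, a metalloreductase, lay at 9.16 and 3.75, 20.3, 22.1 and 24.3 and 34 (D19 A) to 69.4 (D19 B), median 46.3 CPM. Steap2 rose by 2.53 ± 0.44 (adjusted p = 0.0239), with no overlap of the 3 stages. The D0 B levels of Lrg1 and Steap2 are 1 UMI each. Jam2, encoding a junctional adhesion molecule, had 226 and 225 CPM at D0, 559, 588 and 567 at onset and 363 (D25 B) to 656 (D19 A), median 443 at progression, above D0 in all 9 libraries. Its differences of 1.31 ± 0.31 (adjusted p = 0.137) at onset and 1.08 ± 0.28 (adjusted p = 0.174) at progression did not pass in edgeR. Jam2 passed in DESeq2 at onset (1.27, adjusted p = 0.00247) and at progression (1.05, adjusted p = 0.00403). Among members with no UMI of other cell types, the log2 fold change at progression was 3.11 (adjusted p = 0.069) for Lrg1, 3.35 (adjusted p = 0.0569) for Steap2, 1.66 (adjusted p = 0.147) for Clca3a1, 1.41 (adjusted p = 0.101) for Col4a2 and 1.49 (adjusted p = 0.306) for Abca1.

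The calls of Col4a2, Abca1, Lrg1 and Clca3a1 each depended on most libraries being present and that of Steap2 on 2, although each gene kept its direction in all fits. Barcodes with 10 to 100 UMIs had more Abca1 than members in D3 A and D25 A and more Lrg1 in D0 B. Col4a2 lost its call at progression without D0 A, D0 B, D3 A, D5 A, D5 B, D9 B, D19 A, D19 B or D25 A (adjusted p up to 0.135, without D0 A) and in 5 of 11 alternatives (1.35 to 1.59). Abca1 lost its call at progression without D0 A, D0 B, D3 A, D5 B, D9 B, D19 B or D25 A (adjusted p up to 0.0967, without D25 A) and in 5 of 11 alternatives (1.49 to 2.47). Lrg1 lost its call at progression without D0 B, D3 A, D5 A, D5 B, D9 B, D19 A, D19 B or D25 A (adjusted p up to 0.0855, without D25 A) and in 4 of 11 alternatives (2.31 to 6.05). Clca3a1 lost its call at progression without D0 A, D0 B, D3 A, D9 B, D19 A, D19 B or D25 A (adjusted p up to 0.0796, without D0 B) and in 4 of 11 alternatives (1.54 to 2.86). Steap2 lost its call at progression without D0 A or D25 A (adjusted p up to 0.116, without D0 A, log2 value 3.91) and in 4 of 11 alternatives (1.86 to 3.78). Clca3a1 lost its call at onset without D0 A, D3 A, D5 A, D9 B, D19 A or D25 A (adjusted p up to 0.337, without D5 A) and in 4 of 11 alternatives (1.78 to 2.54).

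**Figure D2:**
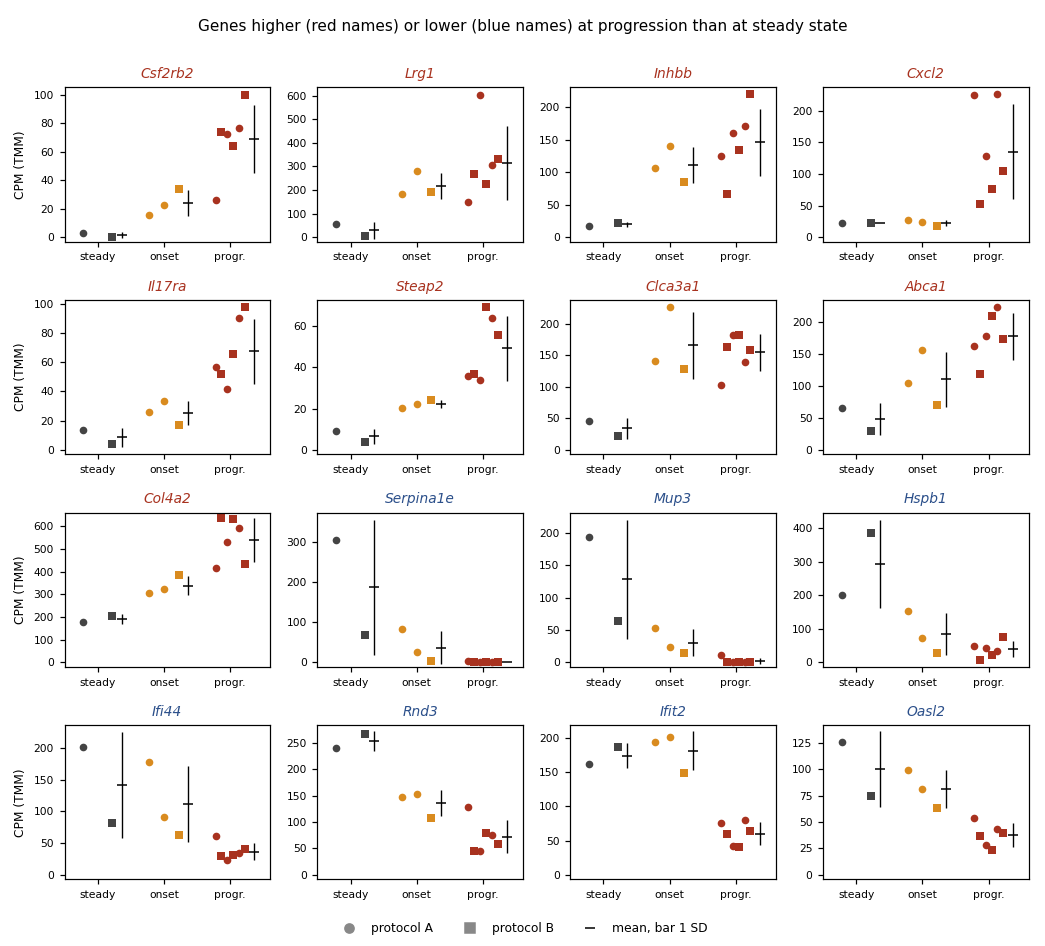
TMM-normalised CPM (vertical axes, starting at 0) in the members of each library at steady state (D0), onset (D3, D5) and progression (D9, D19, D25) for the 9 higher and 7 lower genes named by rule at progression, 1 point per library (circles, protocol A; squares, protocol B), with the mean and 1 SD beside each stage. No progression point of these 16 genes lies within the steady-state points of its panel, which the naming rule required. Of the 9 higher genes, all but Cxcl2 are above both steady-state points in every onset library as well.

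The interferon-stimulated genes Ifit2, Ifi44 and Oasl2 were lower at progression. Such genes are switched on by type I interferon and make antiviral proteins. Of 21 type I interferon-stimulated genes tested, 3 were called lower against steady state, where 0.147% of all genes tested were, and none higher. The other 18 did not pass. Of the 21, 20 had a log2 fold change below 0, and the median was -0.79, against 0.01 over all genes tested. At onset none was called and the median was -0.13. The median at progression stayed below 0 in each of 11 alternatives (-1.04 to -0.64, both protocols alone included) and without any 1 library (-0.92 to -0.63). Ifit2, which binds viral RNA, lay at 161 and 187 CPM at D0, 194, 202 and 148 at onset and 40.6 (D19 B) to 80.5 (D25 A), median 61.9 at progression. All progression libraries were below all others, and the log2 fold change was -1.53 ± 0.28 (adjusted p = 0.0347) against steady state and -1.56 ± 0.24 (adjusted p = 0.0112) against onset. Ifi44 lay at 201 and 82.5 CPM at D0, 178, 91.9 and 63.2 at onset and 23.5 (D19 A) to 61.4 (D9 A), median 33.1 at progression. Ifi44 changed by -1.95 ± 0.37 (adjusted p = 0.0348). Oasl2, of the family of oligoadenylate synthetases, lay at 125 and 75, 99.3, 80.8 and 63.2 and 23.7 (D19 B) to 54.2 (D9 A), median 38.5 CPM. Oasl2 changed by -1.45 ± 0.28 (adjusted p = 0.0465).

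Ifi208, a member of the family of interferon-inducible DNA sensors that was not on the list and was chosen after its values were seen, was also called, with 41.7 and 67.5 CPM at D0, 38.4, 36.7 and 24.3 at onset and 0 (D9 B) to 16 (D9 A), median 13.4 at progression (log2 fold change -1.94 ± 0.36, adjusted p = 0.0347). Other genes of the list varied more between libraries of progression. Isg15, the ubiquitin-like modifier, had 364 and 656 CPM at D0 and 211, 251 and 153 at onset, and its progression libraries lay from 39 (D25 A) to 632 (D25 B), median 84.4. The difference of -1.59 ± 0.66 (adjusted p = 0.396) did not pass, and passed without D25 B (-2.59, adjusted p = 0.0132). Ifit1 had 234 and 52.5 CPM at D0, 170.4, 114 and 122 at onset and 0 (D9 B) to 66.8 (D25 B), median 29.4 at progression (log2 fold change -2.02 ± 0.57, adjusted p = 0.188). Without D0 B, with D0 A alone at steady state, it was called (-2.62, adjusted p = 0.047), and without D0 A the value was -0.57, adjusted p = 0.824. None of 25 genes of interferon gamma response and antigen presentation was called, and their median was -0.56 [-0.68 to -0.19], nearest to 0 without D0 B. Ifit2 lost its call against steady state without D0 A, D0 B, D3 A, D5 A, D5 B, D9 B, D19 B or D25 A (adjusted p up to 0.0882, without D0 B) and in 6 of 11 alternatives (-1.93 to -1.25). Ifi44 lost its call against steady state without D0 A, D5 A, D5 B, D9 B, D19 A, D19 B or D25 A (adjusted p up to 0.367, without D0 A) and in 5 of 11 alternatives (-2.3 to -1.28). Oasl2 lost its call against steady state without D0 A, D3 A, D5 A, D5 B, D9 B, D19 A, D19 B or D25 A (adjusted p up to 0.327, without D0 A) and in 6 of 11 alternatives (-1.7 to -1.14). Ifi208 lost its call against steady state without D0 A, D0 B, D3 A, D5 A, D19 A, D19 B or D25 A (adjusted p up to 0.0855, without D25 A) and in 4 of 11 alternatives (-2.58 to -1.43). Ifit2 lost its call against onset without D3 A or D5 A (adjusted p up to 0.179, without D5 A) and in 4 of 11 alternatives (-1.78 to -1.19). Among members with no UMI of other cell types, the log2 fold change was -1.93 (adjusted p = 0.0975) for Ifit2, -2.16 (adjusted p = 0.0569) for Ifi44 and -1.30 (adjusted p = 0.211) for Oasl2.

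Promoters of 3 genes that interferon is known to induce are shown because they hold the element described next. Of these, Ifi208 was called lower and is not on the list, while Isg15 and Ifit1 did not pass. Type I interferon acts through the complex ISGF3, which binds the interferon-stimulated response element. The letters GAAANNGAAA, or TTTCNNTTTC for the other strand, were searched in the 250 bases before each start in the promoters of RefSeq (build GRCm38.p6), on both strands, and matches may overlap. The stretches below lie before the start and are written 5′ to 3′ along the gene, with matches in capitals. They are that of Isg15 at chr4:156200819-156200956 on the minus strand, of Ifit1 at chr19:34640725-34640873 on the plus strand and of Ifi208 at chr1:173673547-173673664 on the plus strand.
Isg15: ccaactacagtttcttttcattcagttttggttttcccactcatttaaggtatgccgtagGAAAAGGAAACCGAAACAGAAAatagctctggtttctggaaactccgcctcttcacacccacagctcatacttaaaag
Ifit1: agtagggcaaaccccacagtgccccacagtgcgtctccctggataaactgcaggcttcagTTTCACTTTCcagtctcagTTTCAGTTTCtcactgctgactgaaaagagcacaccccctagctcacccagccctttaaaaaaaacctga
Ifi208: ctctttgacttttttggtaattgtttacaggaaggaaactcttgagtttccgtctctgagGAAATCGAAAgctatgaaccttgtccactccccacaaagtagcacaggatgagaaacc
Isg15 has 3 overlapping matches, Ifit1 has 2 and Ifi208 has 1. In all, 978 of 32851 promoters (2.98%) held a match, and 9 of the 19 promoters of the interferon list (47.4%) did, which belong to 17 genes. No match was in the windows of Ifit2, Ifi44 and Oasl2, which says only that these letters are not there. A match is a description and not a measured binding site.

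**Figure D3:**
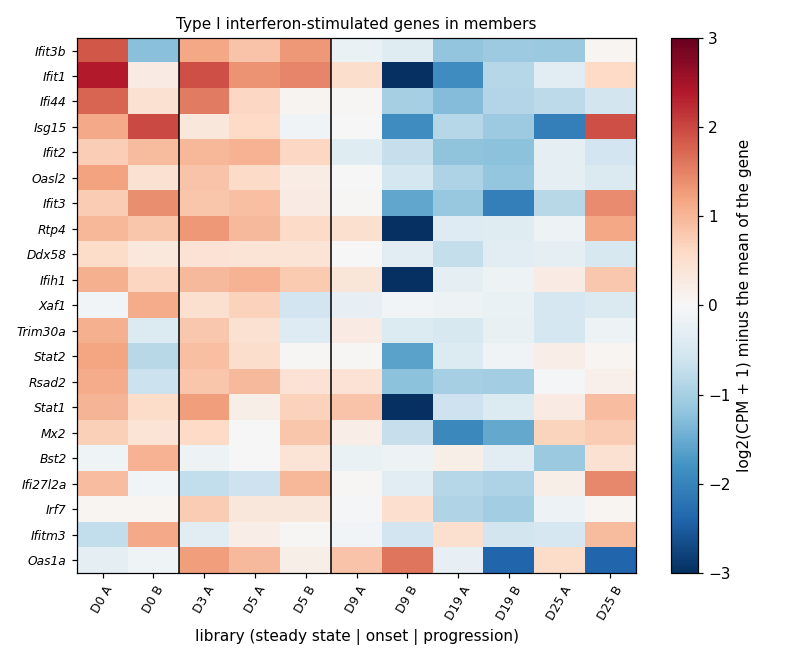
Heat map of 21 type I interferon-stimulated genes (vertical axis, sorted by log2 fold change at progression) in the members of 11 libraries (horizontal axis, black lines between the stages), as log2(CPM + 1) minus the mean of each gene. Ifit2, Ifi44 and Oasl2 are below their mean in D9 B and in both D19 libraries, while Isg15 and Ifit3 are high in D25 B.

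Hspb1 and Rnd3 fell as well. Hspb1, encoding the small heat shock protein 27, lay at 201 and 386 CPM at D0, 152, 73.4 and 29.2 at onset and 7.4 (D9 B) to 75.7 (D25 B), median 38.7 at progression. Hspb1 changed by -2.84 ± 0.48 (adjusted p = 0.0209). It was the only called gene of 20 immediate early and heat shock genes, of which 18 were below 0 with a median of -0.80 [-1.05 to -0.38], nearest to 0 without D0 A, and none was called at onset. Hspa1a, the inducible heat shock protein 70, varied within stages, at 1013 and 259 CPM at D0, 808, 65.9 and 94.9 at onset and 18.6 (D19 B) to 234 (D9 A), median 26.7 at progression. Its difference of -3.35 ± 0.74 (adjusted p = 0.0869) did not pass, and passed without D5 A (-3.41, adjusted p = 0.0408) and without D9 A (-4.21, adjusted p = 0.0232). In protocol B alone, with D0 B as the only steady-state library, the value of Hspa1a was -3.45. Rnd3 lay at 240.5 and 266 CPM at D0, 147, 153 and 107 at onset and 44.4 (D9 B) to 129 (D9 A), median 67 at progression. Rnd3 changed by -1.77 ± 0.31 (adjusted p = 0.0315). Hspb1 lost its call without D0 B, D19 B or D25 A (adjusted p up to 0.0853, without D0 B) and in 1 of 11 alternatives (-3.32 to -2.22). Rnd3 lost its call without D0 A, D0 B, D3 A, D5 A, D9 B, D19 B or D25 A (adjusted p up to 0.0882, without D0 B) and in 4 of 11 alternatives (-2.1 to -1.28). Barcodes with 10 to 100 UMIs had more Hspb1 than members in D9 B and D19 B and more Rnd3 in D9 B and D25 A.

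Groups of genes that stress, metabolism or flow are known to move were mostly without a call between steady state and progression. Of 16 NRF2 and metal response genes none was called, 13 were above 0 and the median log2 fold change was 0.57 [0.41 to 0.71], which ranged from 0.10 to 0.80 over the alternatives. Its members Txnrd1, thioredoxin reductase, and Mt2, a metallothionein, had log2 fold changes of 0.76 ± 0.29 (adjusted p = 0.357) and 1.17 ± 0.39 (adjusted p = 0.28), and neither passed. Mt2 was called without D0 B, with D0 A alone at steady state (2.1, adjusted p = 0.0287), and without D0 A the value was 0.45, adjusted p = 0.642. DDC blocks heme synthesis, and of 16 heme and iron genes none was called, with a median of 0.22 [0.14 to 0.36]. Hmox1, which breaks down heme, lay at 179 and 75 CPM at D0, 117, 98.6 and 99.7 at onset and 104 (D9 B) to 235 (D25 A), median 186 at progression, with overlapping stages, and ferrochelatase, Fech, had a log2 fold change of 0.25 ± 0.38 (adjusted p = 0.884). Of 16 genes of the unfolded protein response and growth arrest none was called, 12 were below 0 and the median was -0.41 [-0.50 to -0.17]. Among them was Cdkn1a, the cell cycle inhibitor p21, at 545 and 409 CPM at D0 and 141 (D9 B) to 389 (D25 B), median 247 at progression (log2 fold change -0.83 ± 0.34, adjusted p = 0.383).

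Of 21 receptors and targets of VEGF, Tie, Notch and BMP signals none was called, with a median of -0.02 [-0.16 to 0.20]. Flt4, VEGF receptor 3, lay at 472 and 397 CPM at D0, 747, 553 and 555 at onset and 615 (D19 A) to 781 (D25 A), median 695 at progression, without overlap of D0 and later libraries (log2 fold change 0.66 ± 0.25, adjusted p = 0.352, which did not pass). Kdr lay at 2333 and 1605 CPM at D0 and 1194 (D19 A) to 2418 (D9 A), median 1503 at progression, where the ranges overlapped. None was called of 11 leukocyte adhesion genes (median 0.14), 19 NF-kB targets (-0.03), 19 cell cycle genes (0.10) and 19 genes of glycolysis and hypoxia (0.28), and with 1 library left out the first 3 medians lay on either side of 0. Of 21 vasoactive and coagulation genes 1 was called, Ptgs2, with a median of 0.13 [-0.04 to 1.02], highest without D0 A. Klf2 of the list of endothelial transcription factors, which responds to shear stress, lay at 1224 and 2392 CPM at D0 and 506 (D9 A) to 1393 (D25 B), median 670.3 at progression (log2 fold change -1.09 ± 0.41, adjusted p = 0.337).

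The capillarization list, with 8 of 11 genes above 0 and a median of 0.49 [0.35 to 1.54], had no call. An unadjusted p under 0.05 (edgeR) was reached by 4 of its genes upward and 0 downward. Its highest median was that without D0 A. Plvap, of the diaphragms of endothelial pores, lay at 16 and 15 CPM at D0, 19, 39.5 and 17 at onset and 16.6 (D9 A) to 80.2 (D19 A), median 49.8 at progression, and Cd34, a marker of continuous endothelium, at 5.5 and 11.2 and 0 (D9 B) to 28.8 (D19 B), median 19.2 CPM. The log2 fold changes of 1.64 ± 0.60 (adjusted p = 0.321) and 1.34 ± 0.59 (adjusted p = 0.435) did not pass. Ccn2, a matricellular protein of the matrix list, lay at 50.8 and 11.2 CPM at D0, 95.1, 228 and 233 at onset and 80.1 (D25 B) to 499 (D19 B), median 286 at progression. All 9 DDC libraries had more than either D0 library, and the log2 fold change of 2.88 ± 0.72 (adjusted p = 0.142) did not pass. Ccn2 was called without D25 B (3.00, adjusted p = 0.0292) and in DESeq2 (3.05, adjusted p = 0.00256).

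The largest fitted falls among the genes named by rule were those of hepatocyte transcripts. Serpina1e, encoding an alpha-1-antitrypsin of hepatocytes, lay at 305 and 67.5 CPM at D0, 83.9, 24.6 and 2.43 at onset and 0 (D9 B) to 2.51 (D9 A), median 0.21 at progression, with 0 UMIs in D9 B, D19 B and D25 B. Its fitted log2 fold change of -7.96 ± 0.59 (adjusted p = 8.37e-06) depends on the prior count, and its call held without any 1 library and was lost in protocol B alone. Mup3, a major urinary protein made by hepatocytes and one of a family of near-identical genes between which counts are uncertain, lay at 194 and 63.7, 53.6, 23.1 and 14.6 and 0 (D9 B) to 11 (D9 A), median 0 CPM (log2 fold change -5.64 ± 0.74, adjusted p = 0.00259). Its call was lost without D0 A (adjusted p = 0.124) and in 1 of 11 alternatives (-7.61 to -4.65), and the fitted value was -9.39 without D9 A. Fabp1, the fatty acid binding protein of hepatocytes, went from 153 and 90.0 to 18.5, 3.2 and 12.2 CPM by onset (log2 fold change -3.6 ± 0.51, adjusted p = 0.014) and was at 1.69 (D19 B) to 8.32 (D25 A), median 6.52 at progression. Its call at progression was lost without D0 A (adjusted p = 0.0622) and in 1 of 11 alternatives (-4.78 to -3.52) and that at onset without D0 A or D25 A (adjusted p up to 0.225, without D0 A) and in 3 of 11 alternatives (-4.01 to -2.63).

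Barcodes with 10 to 100 UMIs had 599 and 212 CPM of Serpina1e at D0 and at most 2.83 CPM in the progression libraries. Of Fabp1 they had 638 and 161 CPM at D0 and 6.21 to 41.1 CPM at progression in all but D25 B, which had 212 CPM. The 12 hepatocyte markers summed to 567.5 to 2336 CPM in members at steady state, 491 to 641 at onset and 385 to 1137 at progression, and 3 of 11 tested were called lower, namely Mup3, Fabp1 and Serpina1c. Serpina1c lost its call without D0 A or D25 A (adjusted p up to 0.649, without D0 A, log2 value -0.96) and in 2 of 11 alternatives (-3.35 to -0.88). Alb of the same list did not pass (log2 fold change -0.35 ± 0.53, adjusted p = 0.882). The part of free RNA in these falls was not tested.

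Genes of macrophages stood among the higher ones. Mmp12, a macrophage metalloproteinase, had 0.458 and 0 CPM at D0, 7.95, 6.41 and 2.43 at onset and 10.2 (D19 B) to 108 (D25 A), median 33.2 at progression, and Fcgr3, an Fc receptor of myeloid cells, had 0.916 and 0 and 6.68 (D25 B) to 38.1 (D25 A), median 22 CPM. Both were called (adjusted p = 0.00207 and 0.0347), and no fold is given against the 0 to 2 UMIs per library at D0. Mmp12 lost its call without D0 A (adjusted p = 0.354) and in 1 of 9 alternatives. Fcgr3 lost its call without D0 A, D3 A, D5 A, D9 B or D25 A (adjusted p up to 0.359, without D0 A) and in 4 of 10 alternatives. The 11 Kupffer cell and macrophage markers summed to 192 to 464 CPM at steady state and 240 to 1438 CPM at progression, all 11 had a log2 fold change above 0 with a median of 1.21 [1.08 to 1.79], and none was called. The granulocyte markers, to which Cxcl2 does not belong, summed to 11.7 to 22 CPM at steady state and 8.80 to 473 CPM at progression. None of 4 granulocyte markers was called against steady state, where their median log2 fold change was 3.71 [1.96 to 4.12], and 2 were called higher against onset, with a median of 4.18 [3.49 to 4.69]. With the gate set after thinning, these medians were 0.70 and 2.13. Mmp12 and Fcgr3 lie outside the naming rule and were chosen after their values were seen. The part of other cells in the higher genes was not tested beyond the values without UMIs of other cell types given above.

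**Figure D4:**
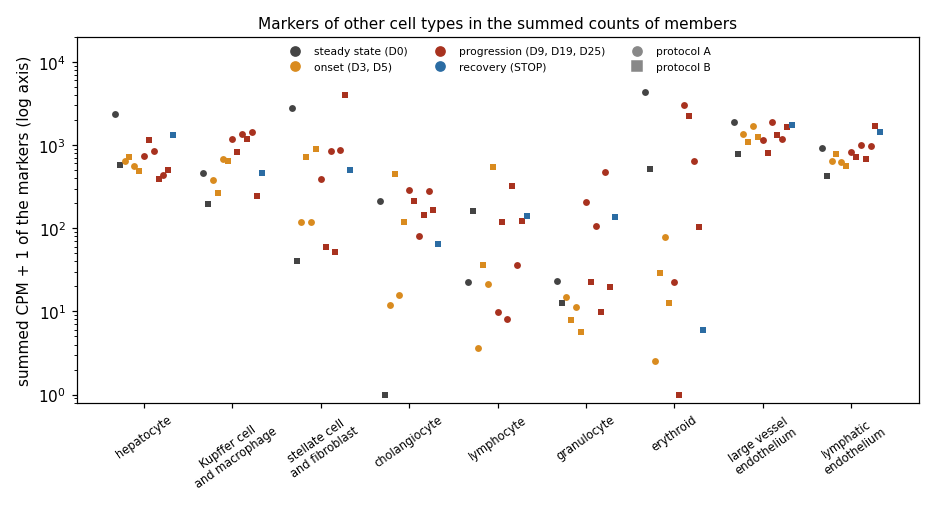
Summed CPM + 1 (vertical log axis) of the markers of 9 other cell types (horizontal axis) in the members of each of the 13 libraries (colour, stage; circles, protocol A; squares, protocol B). Hepatocyte markers are highest in D0 A, Kupffer cell and macrophage markers are above both D0 libraries in 5 of 6 progression libraries, and fibroblast and erythroid markers span wide ranges within each stage.

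Of the 14 genes lower at onset, 9 rested on D0 A alone, since D0 B did not lie above all onset libraries: Abca8a, Col15a1, Col6a2, Fbln1, Igfbp6, Meg3, Ptn, Serpina1e and Tnfaip6. Fibroblast markers summed to 2784 CPM in the members of D0 A, against 39.1 CPM in those of D0 B. The other 5 had both D0 libraries above onset. Among these, Prox1, the master regulator of lymphatic endothelium, lay at 87.5 and 7.5 CPM at D0, 3.75, 5.34 and 2.43 at onset and 20.3 (D19 B) to 62.9 (D19 A), median 28.9 at progression. Its log2 fold changes were -3.85 ± 0.61 (adjusted p = 0.0197) at onset and 3.32 ± 0.55 (adjusted p = 0.018) at progression against onset. Ptgs2, the inducible cyclooxygenase, lay at 86.6 and 3.75 and 1.99, 0.356 and 0 CPM (log2 fold change -5.83 ± 0.58, adjusted p = 0.000456) and from 1.69 (D19 B) to 12.9 (D9 A), median 7.69 at progression (log2 fold change -2.83 ± 0.43, adjusted p = 0.00737). D0 A lay far above D0 B in both genes. Of 6 lymphatic endothelial markers, 5 had a log2 fold change below 0 at onset, with a median of -4.45 [-4.95 to 0.83] that turned to 0.83 without D0 A and to 0.50 among members with 0 UMIs of Vwf, Mmrn1, Prox1 and Dcn. All 6 were above 0 at progression against onset, with a median of 5.52 [5.25 to 5.96] and of 0.10 among those members. That filter removes cells by the lymphatic genes Mmrn1 and Prox1, so the medians after it are in part set by it. Prox1 was the called one in both comparisons. Among members with no UMI of other cell types, the log2 fold change of Prox1 was -3.72 (adjusted p = 0.157) at onset and 2.95 (adjusted p = 0.396) at progression against onset. That setting left out no cell for a lymphatic gene. The part of lymphatic cells in these values was not tested. Among members with 0 UMIs of Vwf, Mmrn1, Prox1 and Dcn, the log2 fold change of Ptgs2 was -0.05 (adjusted p = 1) at onset and 2.05 (adjusted p = 0.577) at progression. Prox1 lost its call at onset without D0 A, D3 A, D5 A or D25 A (adjusted p up to 0.805, without D0 A, log2 value -1.14) and in 4 of 10 alternatives (-4.87 to -1.54). Ptgs2 lost its call at onset without D0 A (adjusted p = 0.585, log2 value -3.49) and in 3 of 9 alternatives (-6.53 to -0.05). Ptgs2 lost its call at progression without D0 A or D25 A (adjusted p up to 0.916, without D0 A, log2 value -0.54) and in 3 of 9 alternatives (-3.72 to 2.05). Prox1 lost its call against onset without D3 A or D5 A (adjusted p up to 0.637, without D3 A) and in 4 of 10 alternatives (0.99 to 3.51). The lowest value of Prox1 against onset was that after thinning.

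Progression against onset named a further gene by rule, Nrg1, encoding neuregulin 1, a ligand of ERBB receptors. It lay at 102, 75.1 and 24.3 CPM in D3 A, D5 A and D5 B and from 0 (D9 B) to 17.2 (D9 A), median 9.79 at progression. Nrg1 changed by -2.57 ± 0.32 (adjusted p = 0.0034). This call was lost without D3 A (adjusted p = 0.0727) and in 2 of 9 alternatives (-4.56 to -2.39). D0 A had 125 CPM and D0 B 7.5 CPM, so steady state spans both stages, although the test against it was passed (log2 fold change -2.74 ± 0.36, adjusted p = 0.00259). That call was lost without D0 A (adjusted p = 0.704, log2 value -1.21) and in 1 of 9 alternatives (-4.95 to -2.61).

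Whether a stage effect differed between members and pericentral-gate cells was tested as an interaction, with positive values for a larger rise or smaller fall in members. At progression, 0 of 9622 genes passed in edgeR (0% of genes tested) and 0 in DESeq2, with an unadjusted p under 0.05 for 353 and 192 genes. At onset 18 genes passed in edgeR (0.187%), 4 of them positive, and 0 in DESeq2. Sept4, a septin, was positive by 1.18 ± 0.19 (adjusted p = 0.00763), Efna1, encoding ephrin A1, by 0.93 ± 0.19 (adjusted p = 0.0375) and Hspa1a by 0.74 ± 0.15 (adjusted p = 0.0305). Members had 65.6 and 78 CPM of Sept4 at D0 and 87, 65.8 and 78.2 CPM at onset, whereas pericentral-gate cells went from 48.3 and 35.9 to 26.1, 19.5 and 24.7 CPM. The members' stages overlapped, while the pericentral-gate cells had less in each onset library than in either D0 library. Of the negative ones, Flrt2, an adhesion molecule, had -1.82 ± 0.29 (adjusted p = 0.00763) and Sema3d, a semaphorin, -2.78 ± 0.45 (adjusted p = 0.00763). Mmrn1, of lymphatic endothelium, and the globin gene Hbb-bs, which stems from red cells, were negative as well with -3.75 ± 0.69 (adjusted p = 0.0194) and -8.59 ± 1.5 (adjusted p = 0.0118), as was Crip1 with -0.89 ± 0.18 (adjusted p = 0.0294). Sept4 lost its call without D0 A, D3 A or D5 A (adjusted p up to 0.839, without D0 A, log2 value 0.65) and in 2 of 5 alternatives (1.12 to 1.23). Efna1 lost its call without D0 A, D0 B, D3 A, D5 A, D9 B, D19 A or D25 A (adjusted p up to 0.772, without D0 A) and in 4 of 5 alternatives (0.68 to 0.96). Hspa1a lost its call without D0 A, D0 B, D3 A or D5 A (adjusted p up to 0.772, without D0 A) and in 3 of 5 alternatives (0.66 to 0.80). Flrt2 lost its call without D0 A or D5 A (adjusted p up to 0.939, without D0 A, log2 value -1.07) and in 2 of 5 alternatives (-2.13 to -1.38). Sema3d lost its call without D0 A, D3 A or D5 A (adjusted p up to 0.867, without D0 A, log2 value -1.78) and in 2 of 5 alternatives (-3.77 to -0.71). Mmrn1 lost its call without D3 A or D5 A (adjusted p up to 0.187, without D5 A, log2 value -7.98 without D3 A) and in 2 of 4 alternatives (-3.94 to -3.57). Hbb-bs lost its call without D0 A, D3 A or D5 A (adjusted p up to 0.655, without D0 A, log2 value -19) and in 2 of 5 alternatives (-9.79 to -7.55). Crip1 lost its call without D0 A, D0 B, D3 A, D5 A or D5 B (adjusted p up to 0.655, without D0 A) and in 2 of 5 alternatives (-1.27 to -0.42). When members with a UMI of Vwf, Mmrn1, Prox1 or Dcn were left out, 12 genes passed, 2 of them shared with the 18. Of the genes named here Hbb-bs passed, while Sept4 had 1.21 (adjusted p = 0.0731), Efna1 0.68 (adjusted p = 0.441), Hspa1a 0.67 (adjusted p = 0.2), Flrt2 -1.38 (adjusted p = 0.168), Sema3d -0.71 (adjusted p = 1) and Crip1 -0.42 (adjusted p = 1). Mmrn1 could not be tested there, and with a library left out it could be tested without D0 B, D3 A, D5 A, D5 B, D9 B or D19 B but not in the other 5 fits, where it was not among the genes tested.

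Cell cycle transcripts were found in few members. After thinning to 1500 UMIs, a UMI of any of 8 cell cycle genes was found in 4.75% of members of D0 A, 3.74% of those of D0 B and 0% to 5.91% of those of the 9 DDC libraries tested. Within protocol, DDC minus steady state was -1.59 percentage points (two-sided exact permutation test over 30 assignments, p = 0.333, the smallest possible p being 0.0333). Without thinning the difference was 2.31 points (exact p = 0.567). In the recovery library, after thinning, 18 of 215 members (8.37%, exact 95% interval 5.04 to 12.9%) had such a UMI.

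The recovery library STOP, 1 library with no replicate, was set beside D19 B and D0 B of the same protocol, with exact Poisson intervals that cover counting error only and no test. Values in this paragraph are CPM not adjusted by TMM. Of the 16 genes named by rule at progression, STOP lay below D19 B in 5, above it in 5 and within overlapping intervals in 6. These genes were named for stages that did not overlap, so the levels of D0 B and D19 B had to differ in them. Inhbb had 23.5 (8.62 to 51.1) CPM in D0 B, 139 (110.1 to 173) in D19 B and 78.3 (62 to 97.5) in STOP, so it lay between them. Col4a2 likewise had 215 (162 to 280.2), 656 (591 to 726) and 449 (408 to 492). Lrg1 stayed at the D19 B level, with 3.91 (0.0991 to 21.8), 232 (194 to 275) and 247 (217 to 279) CPM. Clca3a1 and Abca1 also overlapped D19 B and were above D0 B, while Cxcl2 was higher in STOP than in D19 B, at 241 (211 to 273) against 79.2 (57.8 to 106) CPM.

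Of the list of interferon-stimulated genes, Ifit1, Ifit2, Ifit3, Ifi44, Isg15 and Oasl2 were examined in STOP, and all lay above D19 B by their intervals. The rest of the list was not examined there. Ifit2, Ifi44 and Oasl2 had been named because the progression libraries, D19 B included, lay below D0. D19 B had the lowest level of Ifit2 and Oasl2 among these, so a place above it is in part set by the choice. The positions of the examined genes beside D0 B differed. Ifit2 had 196 (145 to 258) CPM in D0 B, 42.2 (27.1 to 62.8) in D19 B and 206 (179 to 236) in STOP, where it overlapped D0 B. Oasl2 had 78.3 (47.8 to 121), 24.6 (13.5 to 41.3) and 71.3 (55.8 to 89.8) CPM, and Ifi44 was above both with 172 (148 to 199.97) CPM in STOP. Isg15 was above D19 B but below D0 B, with 685 (587 to 794), 80.9 (59.3 to 108) and 505 (462 to 551) CPM. Hspb1 and Rnd3 remained at the level of D19 B and below D0 B, at 35.7 (25 to 49.4) and 88.2 (70.8 to 108) CPM in STOP.

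**Figure D5:**
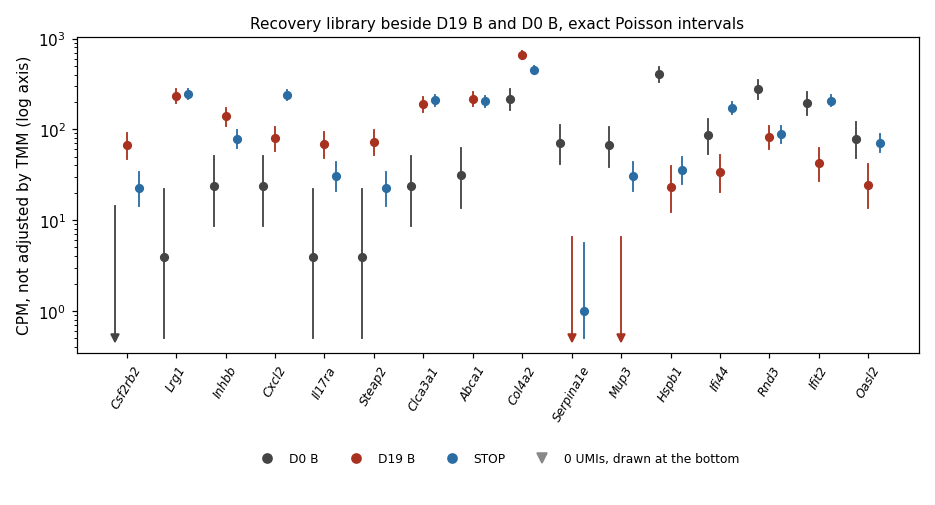
CPM not adjusted by TMM (vertical log axis) with exact 95% Poisson intervals for the 16 genes named by rule at progression in members of D0 B, D19 B and STOP; triangles at the bottom mark 0 UMIs. STOP lies between D0 B and D19 B for Inhbb and Col4a2, at the level of D19 B for Lrg1, Clca3a1 and Abca1, and near D0 B for Ifit2 and Oasl2.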

How the data were processed

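The deposited files hold counts: per library, the authors' matrices of UMI counts per gene and cell barcode, not normalised and not filtered to cells. The submitters' processing notes name kallisto and GRCm38, and versions, annotation and filters are not given in the sources used here. The members and gene lists were chosen with earlier results of these data known.

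All barcodes with at least 1500 UMIs entered the gate. Counts of gated cells were summed per library, libraries with under 20 such cells were left out, and genes were kept by the expression filter of edgeR. Stage and protocol were fitted with edgeR's quasi-likelihood test (version 4.0.16, R 4.3.3, TMM normalisation). Members were compared with pericentral-gate cells with the library as a block, and the stage-by-kind interaction was tested in that fit. DESeq2 1.42.0 was an alternative. Other scripts used numpy 2.4.6, scipy 1.17.1 and pandas 2.3.3. The edgeR fits were tested on simulated counts with 200 genes changed by 2 on the log2 scale, of which 87.5% to 100% were recovered. At an adjusted p under 0.05, false calls made up 3.85% to 8.26%, most for members against pericentral-gate cells. Doublets were not removed. Total UMIs per library were 29307190 to 108602421, and cell-level shares and Poisson intervals cover counting error only.

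Genes were named by rule: for stages, the 10 called genes with the largest fold change in each direction whose mean log2 CPM was 5 or more and whose groups did not overlap, for cell kinds the 5 in each direction with 1 sign in every library, genes of the lists with the counts of their whole list, and for recovery the genes named at progression. Predicted, mitochondrial, ribosomal and gate genes were not named. Genes outside the rule are marked as chosen after their values were seen, as are Ptgs2 at onset, Nrg1 against steady state, Vegfc and the interferon promoters. The alternatives were a gate of at least 5 UMIs, cells with at least 3000 UMIs, a gate after thinning to 1500 UMIs, pericentral-gate cells with at least 2 UMIs of Wnt2, Wnt9b and Kit, no protocol term, each protocol alone, no filter on low counts, fewer gene classes and each library left out. The fit with fewer gene classes was added after seeing the data. Members without UMIs of Vwf, Mmrn1, Prox1 or Dcn and members without UMIs of other cell types were added after seeing the data. The latter had no UMI of Clec4f, Vsig4, Cd5l, C1qa, Lyz2, Dcn, Col1a1, Col3a1, Cd3e, Cd79a, S100a8 or S100a9 and at most 2 UMIs of Alb. No gene of lymphatic or large vessel endothelium, red cells or bile ducts was used.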

Additional observations from a re-analysis of the deposited data

Results flagged for a closer look

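In 10 of 58 groups of 6 progression libraries that were examined, 1 library stood apart from the other 5 by Dixon's test. Its rate of about 1 in 20 by chance assumes independent normal values of equal precision. Most of these are CPM of related genes in libraries of unequal size, so the count cannot be set against that rate. D9 B had the lowest level of Ctsb, 1369 CPM, 0 CPM of Ifi208 and the highest level of Fech, 133 CPM. D9 A had the highest levels of Ehd3, 2209.6 CPM, of Kdr, 2418 CPM, of Hspa1a, 234 CPM, and of the hepatocyte genes Mup3, 11 CPM, and Serpina1e, 2.51 CPM. D25 B had 632 CPM of Isg15, above every other progression library and within the steady-state range, and D25 A had 108 CPM of Mmp12.

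The stage effect at onset differed between members and pericentral-gate cells for the 8 genes named by rule, as the interaction term tested it. The difference was 1.18 on the log2 scale for Sept4, 0.93 for Efna1 and 0.74 for Hspa1a. It was -0.89 for Crip1, -1.82 for Flrt2, -2.78 for Sema3d, -3.75 for Mmrn1 and -8.59 for Hbb-bs, of which Mmrn1 and Hbb-bs mark lymphatic endothelium and red cells. Their adjusted p-values in edgeR's quasi-likelihood test were 0.00763, 0.0375, 0.0305, 0.0294, 0.00763, 0.00763, 0.0194 and 0.0118, in that order. DESeq2 called none of them.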

How the results depend on the processing

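No paired analysis was possible because the labels number no replicates that pair libraries between stages. Members and pericentral-gate cells were compared within libraries. Counts of called genes are given for onset against steady state, progression against steady state and progression against onset, which were 16, 28 and 24. They were 31, 110 and 86 with DESeq2, 385, 350 and 417 with no filter on low counts, 255, 46 and 93 in cells with at least 3000 UMIs (without D0 B and D9 B), 0, 16 and 5 with no protocol term, 187, 68 and 136 in protocol A alone and 0, 15 and 0 in protocol B alone. With a gate of at least 5 UMIs, the onset count was 31. After thinning, the counts for progression were 102 against steady state and 9 against onset. Among members with no UMI of other cell types, without D9 B, D19 A and D25 B and over 6341 genes, they were 1, 4 and 1, and among those with no UMI of Vwf, Mmrn1, Prox1 or Dcn 3, 47 and 14, where the fold change of Ptgs2 at progression turned to 2.05. With 1 library left out they ranged over 1 to 186, 11 to 73 and 1 to 105. Members against pericentral-gate cells gave 1648 calls, 1321 to 1703 with a library left out and 1248 without UMIs of Vwf, Mmrn1, Prox1 or Dcn in members, of which 987 were shared and 974 kept their direction. The interaction at onset, with 18 calls, gave 0 with DESeq2, 109 with no filter, 12 (2 shared) among members with no UMI of Vwf, Mmrn1, Prox1 or Dcn and 0 to 34 with a library left out. That at progression, with 0, gave 56 with no filter, 2 with at least 3000 UMIs, 5 without those vessel UMIs and 0 to 6 with a library left out. The difference in cell cycle share was 2.31 percentage points with no thinning and -3.12 after thinning to 3000 UMIs, and -1.91 to -1.26 with a library left out. The cause of these changes was not tested. Of the values for single genes, 1444 kept direction and side of the threshold, 312 lost the call, 39 gained it and 16 changed sign. With no filter on low counts, Isg15, Ifit1, Hspa1a, Ehd3, Ctsb, Col4a1, Selp and Adgrg6 gained a call at progression against steady state. So did Mt2, Klf2, Plvap and Ccn2, and Jam2 did at onset. Apart from Ptgs2, the values that changed sign are log2 fold changes at progression against steady state that passed in neither fit. With a library left out these ranged from -0.36 to 0.0024 for Stab1, -0.78 to 2.79 for Rspo3 and -1.18 to 1.29 for Alb, crossing 0 without D0 A, and from -0.074 to 1.12 for Efnb2 and -0.24 to 1.58 for Fech, crossing 0 without D0 B. In protocol B alone they were 0.34 for Adgrg6, 2.48 for Rspo3 and 1.32 for Alb, and in protocol A alone -0.13 for Efnb2 and -0.26 for Fech. In cells with at least 3000 UMIs they were 0.11 for Mrc1 and -0.12 for Fech, after thinning -0.077 for Efnb2, with DESeq2 0.0039 for Rspo3 and without UMIs of Vwf, Mmrn1, Prox1 or Dcn 0.81 for Rspo3.

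With 2 libraries at steady state, 1 of them of 107 members, the comparisons with steady state rest on few cells, and the calls for low genes on few UMIs. Protocol, sort and index kit changed together and are 1 term in the fit. Members hold RNA of other cells, as the marker sums show.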
